A study of Mus musculus with 12 samples.

Results

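Zinc-handling genes were followed in the anterior prostate of APT121 and wild type male mice, as a set of 10 genes chosen by name: the metallothioneins Mt1, Mt2 and Mt3, the zinc-sensing transcription factor gene Mtf1, the ZnT transporter genes Slc30a1, Slc30a2 and Slc30a4 and the ZIP transporter genes Slc39a1, Slc39a6 and Slc39a8. All 10 were measured, among 19935 genes tested. APT121 mice express T121, a truncated SV40 large T antigen by which pRb and its relatives are inactivated, from the prostate-restricted probasin promoter, and their tissue is labelled as bearing lesions of prostatic intraepithelial neoplasia (PIN). Wild type controls are labelled normal. Mice of both genotypes were males of the F3 generation from C57BL/6J and DBA/2 founders, ate AIN93G diet from 3 weeks and were killed at 12 weeks. Each array received RNA pooled from 2 mice, for a total of 8 APT121 mice on 4 arrays and 16 wild type mice on 8 arrays.

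Prostate is among the soft tissues richest in zinc, and prostate epithelium is known for secreting zinc together with citrate. ZIP proteins carry zinc into the cytosol from outside the cell or from organelles, ZnT proteins carry it out of the cytosol or into vesicles, and metallothioneins are small cysteine-rich proteins that bind zinc and copper in the cell. MTF-1, the product of Mtf1, binds metal response elements in DNA when zinc is plentiful, and Mt1, Mt2 and Slc30a1 are textbook targets of it in mouse.

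APT121 prostate had lower metallothionein transcripts and a changed set of vesicular zinc transporters. Mt3 was 12.2-fold lower, Slc30a2 4.09-fold lower, Mt1 2.53-fold lower and Mt2 2.43-fold lower, while Slc30a4 was 3.94-fold higher and Slc39a8 1.85-fold higher. Of the 10 genes, 2 rose and 5 fell at an adjusted p of 0.05 (limma across all genes, Benjamini-Hochberg), and 3 did not pass. The background is high in this comparison, since 52.8% of all genes tested passed, 22.8% higher and 30.0% lower, so a count of 7 in 10 says little about these genes in themselves. Changes of at least 2-fold that passed were found for 5 of the 10 genes, against 7.68% of all genes. The genes were chosen with earlier results of these data known, so this share is no test of the set. Among the 20 further zinc genes read below, the largest folds were 3.65-fold higher (Slc39a4) and 1.99-fold lower (Slc39a14). For 7 of the 10 the APT121 and wild type values did not overlap (34.6% of all genes), with APT121 above for 2 (17.7%) and below for 5 (16.9%). The median difference of the 10 was -0.10 on the log2 scale and that of all genes was -0.09. Below, levels are log2 intensities, means are given ± SD, and differences (± SE) subtract the wild type mean log2 intensity from that of APT121.

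**Figure D1:**
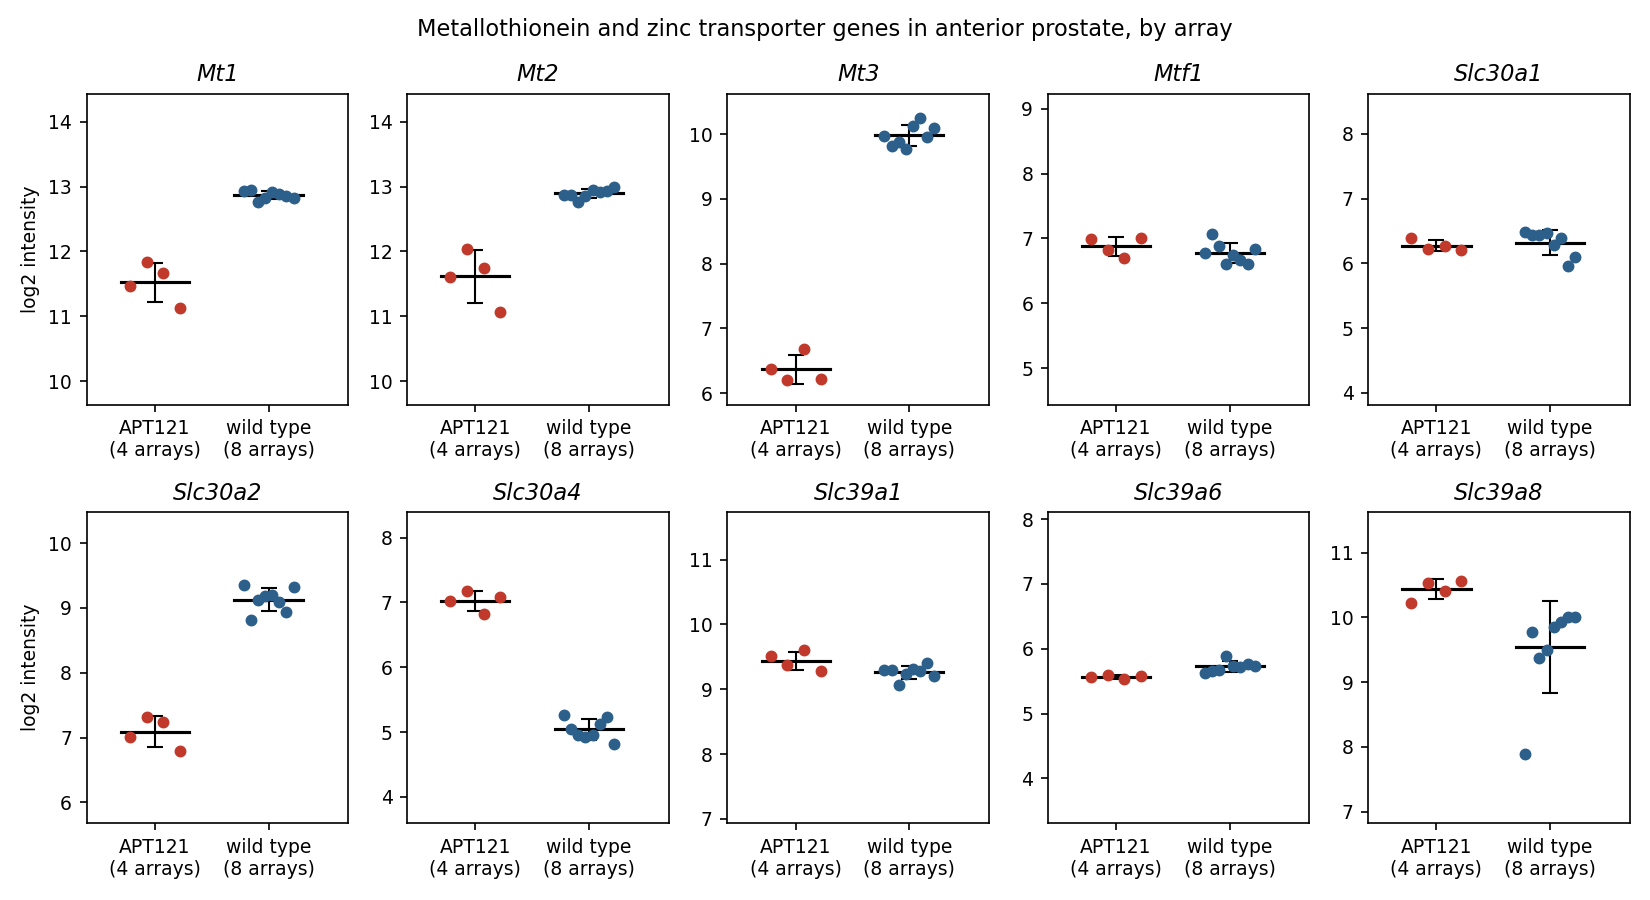
Log2 intensity of each of the 10 genes, with a point for each array (4 APT121 on the left in red, 8 wild type on the right in blue), a horizontal bar for the mean and whiskers for the SD. Each panel spans the same number of log2 units. The groups are apart for Mt1, Mt2, Mt3, Slc30a2 and Slc30a4, and wild type array 1 is low for Slc39a8 at 7.89.

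The arrays were also examined for other tissues. Arrays of the same genotype correlated at 0.990 to 0.995 and arrays of different genotype at 0.944 to 0.957 (Pearson's r, taken across genes, so that its points are not replicates). The second principal component, with 4.4% of the variance, separated wild type arrays 1 to 4 from 5 to 8. No label names a cause for that, so the differences of the 38 genes recomputed under other settings are given against each set where they moved by over 1.5 times between them. Luminal epithelial markers were present in both groups, with a summed intensity of 19126 to 19950 in APT121 arrays and 10649 to 12353 in wild type arrays (8 of 10 markers measured). Of these 8, 6 rose, Hoxb13 fell and Krt18 did not pass, beside 22.8% higher and 30.0% lower among all genes. Seminal vesicle markers (8 of 8 measured) summed to 1569 to 17974 in APT121 arrays and to 15991 in wild type array 6, against 104 to 201 in the other 7 wild type arrays. Of these markers, Svs2, Svs5 and Pate4 rose and 5 did not pass, beside 22.8% higher among all genes. Of the 5, Svs4 had a higher mean in APT121, and Svs1, Svs3a, Svs3b and Svs6 had lower ones (2.57 to 3.80 against 3.05 to 4.33). The medians of Svs1, Svs3a, Svs3b and Svs6 were closer, at 2.54 to 3.74 in APT121 and 2.62 to 3.94 in wild type. Their highest wild type values were 5.86 to 6.97. Smooth muscle markers fell for 10 of 10 genes, fibroblast markers for 9 of 10, endothelial markers for 8 of 10, basal epithelial markers for 7 of 8 and adipose markers for 8 of 9 measured, beside 30.0% lower among all genes. Basal markers summed to 1196 to 1432 in APT121 arrays and to 1510 to 1856 in wild type arrays. Skeletal muscle markers fell for 4 of 8 and the others did not pass, beside 30.0% lower among all genes. They summed to 1000 to 1089 in APT121 arrays and to 1349 to 1872 in wild type arrays. Myeloid markers rose for 9 of 10, beside 22.8% higher among all genes. In whole tissue, fewer cells of a type and less RNA per cell cannot be told apart.

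Mt1 and Mt2 encode the widely expressed metallothioneins that cells induce in response to zinc, cadmium and glucocorticoids. Mt1 was at 11.47, 11.83, 11.67 and 11.13 in APT121 arrays 1 to 4, against 12.76 to 12.94 (median 12.86) in the 8 wild type arrays. All 4 APT121 arrays lay below all wild type arrays, and the highest APT121 value was that of array 2. The difference was -1.34 ± 0.10 (95% interval -1.55 to -1.13, adjusted p = 1.24e-08 by limma). Mt2 was at 11.61, 12.03, 11.74 and 11.07 in APT121 arrays 1 to 4, against 12.76 to 13.00 (median 12.90) in wild type arrays, a difference of -1.28 ± 0.12 (95% interval -1.55 to -1.02, adjusted p = 2.88e-07 by limma). The groups did not overlap for Mt2 either. The wild type arrays were close to each other for these genes while the APT121 arrays spread more widely: the SD was 0.30 in APT121 and 0.06 in wild type for Mt1, and 0.41 in APT121 and 0.07 in wild type for Mt2. The limma fit pools the variance of a gene over both groups. With the wider spread in the smaller group, the SE and intervals given for Mt1 and Mt2 are likely too narrow. No fit with a separate variance for each group was run. In wild type arrays the levels of Mt1 and Mt2 were among the highest of all genes tested. Compression of signals this high would shrink both the wild type SD and the fold, and it was not tested. By rank of the difference, Mt1 was the 192nd and Mt2 the 214th lowest of all 19935 genes.

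Mt3, the metallothionein best known from brain, had the largest difference of the 10. Its level was 6.37, 6.20, 6.68 and 6.22 in APT121 arrays 1 to 4, against 9.77 to 10.25 (median 9.97) in the 8 wild type arrays. In linear intensities these are 73.3 to 102 in APT121 and 870 to 1215 in wild type, so that the groups are far apart and every array of a group is close to the others. The difference was -3.61 ± 0.10 (95% interval -3.83 to -3.39, adjusted p = 2.31e-13 by limma), the 18th lowest of the 19935 genes. Array medians over all genes lay between 5.37 and 5.46, and no detection calls were used, so the fold is one of measured intensities. The intervals of Mt1 and Mt2 (down to -1.55) do not reach that of Mt3 (up to -3.39). These too are intervals of measured intensities, and compression of the high wild type signals of Mt1 and Mt2 was not tested.

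The metallothionein genes are neighbours on mouse chromosome 8, in the order Mt4, Mt3, Mt2, Mt1. Mt4, which is known from stratified squamous epithelium, had a low signal of 4.15 ± 0.17 in APT121 and 4.48 ± 0.10 in wild type and fell by 0.34 ± 0.08 (adjusted p = 0.00203 by limma). The protein-coding genes on either side, read because of their place after the metallothionein values were known, had smaller differences than Mt1, Mt2 and Mt3 or the opposite sign. Bbs2, a gene of the ciliary BBSome, lies beyond Mt4 and fell by 0.46 ± 0.08 (adjusted p = 2.43e-04 by limma), and Ogfod1, an oxygenase gene, fell by 0.34 ± 0.06 (adjusted p = 2.00e-04 by limma). For both, all APT121 arrays lay below all wild type arrays. Nup93, a nucleoporin gene next to Mt1, rose by 1.15 ± 0.08 (adjusted p = 6.35e-09 by limma), and the sodium-chloride cotransporter gene Slc12a3 beyond it differed by -0.06 ± 0.10 (adjusted p = 0.630 by limma).

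**Figure D2:**
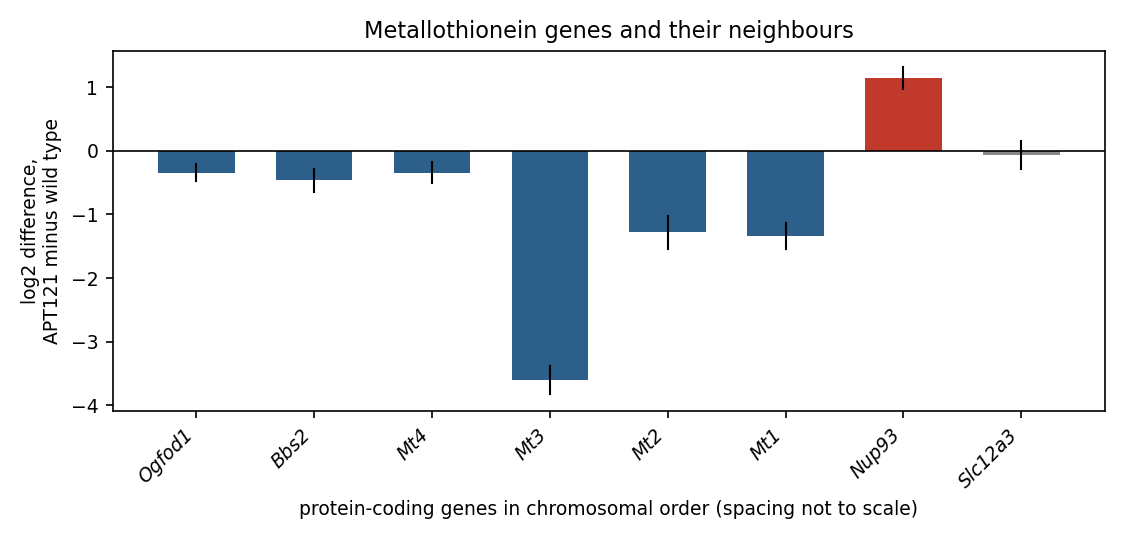
Difference in log2 intensity (APT121 minus wild type, bars) with its 95% interval (lines) for the metallothionein genes and the nearest protein-coding genes, in chromosomal order. Red bars are genes that rose, blue bars genes that fell and grey did not pass. Mt3 is at -3.61, Mt2 at -1.28 and Mt1 at -1.34, between Bbs2 at -0.46 and Nup93 at 1.15.

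The sequences before the starts of 4 of the genes are shown because 3 of them fell together and the other, Slc30a1, is an MTF-1 target that did not pass the test. They are the 250 bases before the RefSeq start in GRCm38.p6, written 5′ to 3′ on the gene's strand, all 4 on the plus strand: chr8:94178839-94179088 for Mt1, chr8:94172368-94172617 for Mt2, chr8:94152357-94152606 for Mt3 and chr1:191906531-191906780 for Slc30a1. Capitals mark the cores of the metal response element, searched as TGCACNC and TGCGCNC on both strands (N is any base), with overlapping matches allowed.
Mt1: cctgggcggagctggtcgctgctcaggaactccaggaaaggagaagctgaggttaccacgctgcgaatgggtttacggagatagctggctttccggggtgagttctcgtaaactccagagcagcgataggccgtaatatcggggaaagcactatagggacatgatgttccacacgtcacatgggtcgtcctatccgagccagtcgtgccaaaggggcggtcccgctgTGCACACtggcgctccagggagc
Mt2: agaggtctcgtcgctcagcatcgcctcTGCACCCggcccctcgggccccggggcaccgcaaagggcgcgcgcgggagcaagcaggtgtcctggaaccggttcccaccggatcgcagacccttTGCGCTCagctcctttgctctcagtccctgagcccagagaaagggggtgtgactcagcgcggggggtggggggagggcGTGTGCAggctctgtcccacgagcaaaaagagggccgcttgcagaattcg
Mt3: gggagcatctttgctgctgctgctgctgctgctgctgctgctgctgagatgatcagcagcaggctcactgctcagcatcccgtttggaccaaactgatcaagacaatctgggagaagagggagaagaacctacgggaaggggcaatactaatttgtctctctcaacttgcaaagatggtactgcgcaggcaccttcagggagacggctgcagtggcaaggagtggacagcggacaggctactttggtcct
Slc30a1: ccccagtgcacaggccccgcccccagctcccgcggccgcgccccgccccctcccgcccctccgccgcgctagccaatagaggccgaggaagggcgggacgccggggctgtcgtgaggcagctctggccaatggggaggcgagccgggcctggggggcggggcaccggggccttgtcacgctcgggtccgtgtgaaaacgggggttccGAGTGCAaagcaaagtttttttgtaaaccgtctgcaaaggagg

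Mt1 held 1 core in these 250 bases, Mt2 held 3, Mt3 held 0 and Slc30a1 held 1. At least 1 core was present in 21.4% of the 32851 RefSeq windows of this length, and at least 3 in 1.26%. With the 50 bases from the start onwards included, the counts were 3 for Mt1, 4 for Mt2, 1 for Mt3 and 2 for Slc30a1, where 1.97% of windows hold at least 3 and 0.517% at least 4. Among the other genes of the set, Slc30a2 held 2 cores and Slc30a4 held 2 before the start, Mtf1 and Slc39a1 held 0, and the 2 windows of Slc39a8 held 0 and 1. Windows were read for 9 of the 10 genes. Slc39a6 lies on chromosome 18, whose windows were left out when single genes were read, so its cores were not counted. A match is a description of the letters, and RefSeq starts need not be those used in prostate.

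Mtf1 itself did not pass the test. It was at 6.99, 6.82, 6.70 and 7.01 in APT121 arrays 1 to 4, against 6.60 to 7.07 (median 6.75) in wild type arrays, and the groups overlapped. The difference of 0.11 ± 0.09 (95% interval -0.08 to 0.30, adjusted p = 0.312 by limma) leaves room for a level in APT121 between 0.945 and 1.23 times that of wild type. It was 0.05 against wild type arrays 1 to 4 and 0.17 against arrays 5 to 8 (adjusted p = 0.726 and 0.132 by limma). Its sign turned after quantile normalisation over the genes tested (-0.06, adjusted p = 0.617 by limma).

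The zinc exporter gene of the plasma membrane, Slc30a1 (ZnT1), also did not pass. APT121 arrays 1 to 4 were at 6.39, 6.22, 6.26 and 6.21, against 5.96 to 6.48 (median 6.41) in wild type arrays. All 4 APT121 values lay inside the wild type range. The difference was -0.05 ± 0.10 (95% interval -0.25 to 0.16, adjusted p = 0.691 by limma). Wild type arrays 1 to 4 averaged 6.45 ± 0.03 and arrays 5 to 8 averaged 6.18 ± 0.19, and the sign of the difference turned between them. Against arrays 1 to 4 it was -0.18 (adjusted p = 0.0565 by limma), with all APT121 values below the 6.43 to 6.48 of those arrays, and against arrays 5 to 8 it was 0.09 (adjusted p = 0.468 by limma). The intervals of Mt1 and Mt2 lie wholly below that of Slc30a1.

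Vesicular ZnT genes moved in opposite directions. Slc30a2 (ZnT2), which loads zinc into secretory vesicles and is required for normal zinc in milk, was at 7.01, 7.32, 7.24 and 6.80 in APT121 arrays 1 to 4, against 8.82 to 9.36 (median 9.15) in wild type arrays. No APT121 array came near the wild type range, and the difference was -2.03 ± 0.11 (95% interval -2.27 to -1.80, adjusted p = 2.69e-10 by limma), the 63rd lowest of all genes. Slc30a4 (ZnT4), a vesicular transporter whose loss causes the lethal milk phenotype in mice, was at 7.02, 7.17, 6.82 and 7.08 in APT121 arrays, against 4.82 to 5.27 (median 5.00) in wild type arrays. The lowest APT121 array was above the highest wild type array. The difference was 1.98 ± 0.09 (95% interval 1.79 to 2.17, adjusted p = 4.13e-11 by limma), the 398th highest of all genes. Its wild type signal was below the array medians of 5.37 to 5.46, so this fold too is one of measured intensities.

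Slc39a8 was the ZIP gene of the set that rose. Its product, ZIP8, imports zinc, manganese and cadmium. The level was 10.22, 10.53, 10.41 and 10.56 in APT121 arrays 1 to 4, against 7.89 to 10.01 (median 9.82) in wild type arrays. The groups did not overlap, but wild type array 1 stood alone at 7.89 while the other 7 wild type arrays lay between 9.38 and 10.01. The difference over all arrays was 0.89 ± 0.30 (95% interval 0.26 to 1.52, adjusted p = 0.0202 by limma). Without wild type array 1 the difference was 0.65, with an adjusted p = 3.61e-04 by limma. Set against arrays 5 to 8 of the wild type it was 0.49 (adjusted p = 7.77e-04 by limma), and set against arrays 1 to 4 it was 1.30 (adjusted p = 0.00590 by limma). Leaving out APT121 array 2 or APT121 array 4, with wild type array 1 kept, ended the call (adjusted p = 0.0523 and 0.0510 by limma). Wild type array 1 also had the lowest summed intensity of adipose markers of the wild type arrays, 357 against 714 to 1558 in the others, while APT121 arrays had 333 to 601. The part of this in the Slc39a8 values was not tested.

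Slc39a1 (ZIP1), an importer at the cell surface that has been studied in human prostate, lay just outside the threshold. Its level was 9.51, 9.37, 9.60 and 9.29 in APT121 arrays 1 to 4, against 9.07 to 9.40 (median 9.29) in wild type arrays, with overlap. The difference was 0.18 ± 0.07 (95% interval 0.02 to 0.34, adjusted p = 0.0510 by limma), and it passed without APT121 array 4 (0.23, adjusted p = 0.0255) or wild type array 7 (0.20, adjusted p = 0.0365). It was 0.22 against wild type arrays 1 to 4 and 0.14 against arrays 5 to 8 (adjusted p = 0.0681 and 0.180 by limma). A second transcript cluster for this gene, with lower signal, read 7.80 ± 0.02 in APT121 and 7.77 ± 0.08 in wild type, a difference of 0.03 (adjusted p = 0.686 by limma), so the clusters did not give the same size.

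Slc39a6 (ZIP6), known in human breast as the oestrogen-responsive gene LIV-1, lay just inside it. Its level was 5.56, 5.60, 5.53 and 5.58 in APT121 arrays 1 to 4, against 5.62 to 5.89 (median 5.73) in wild type arrays. The APT121 arrays all lay below the wild type arrays, by a narrow gap near the median signal of the arrays. The difference was -0.16 ± 0.06 (95% interval -0.29 to -0.03, adjusted p = 0.0363 by limma). Leaving out any APT121 array, or wild type array 4, 5, 7 or 8, ended the call, with adjusted p-values up to 0.0838.

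**Figure D3:**
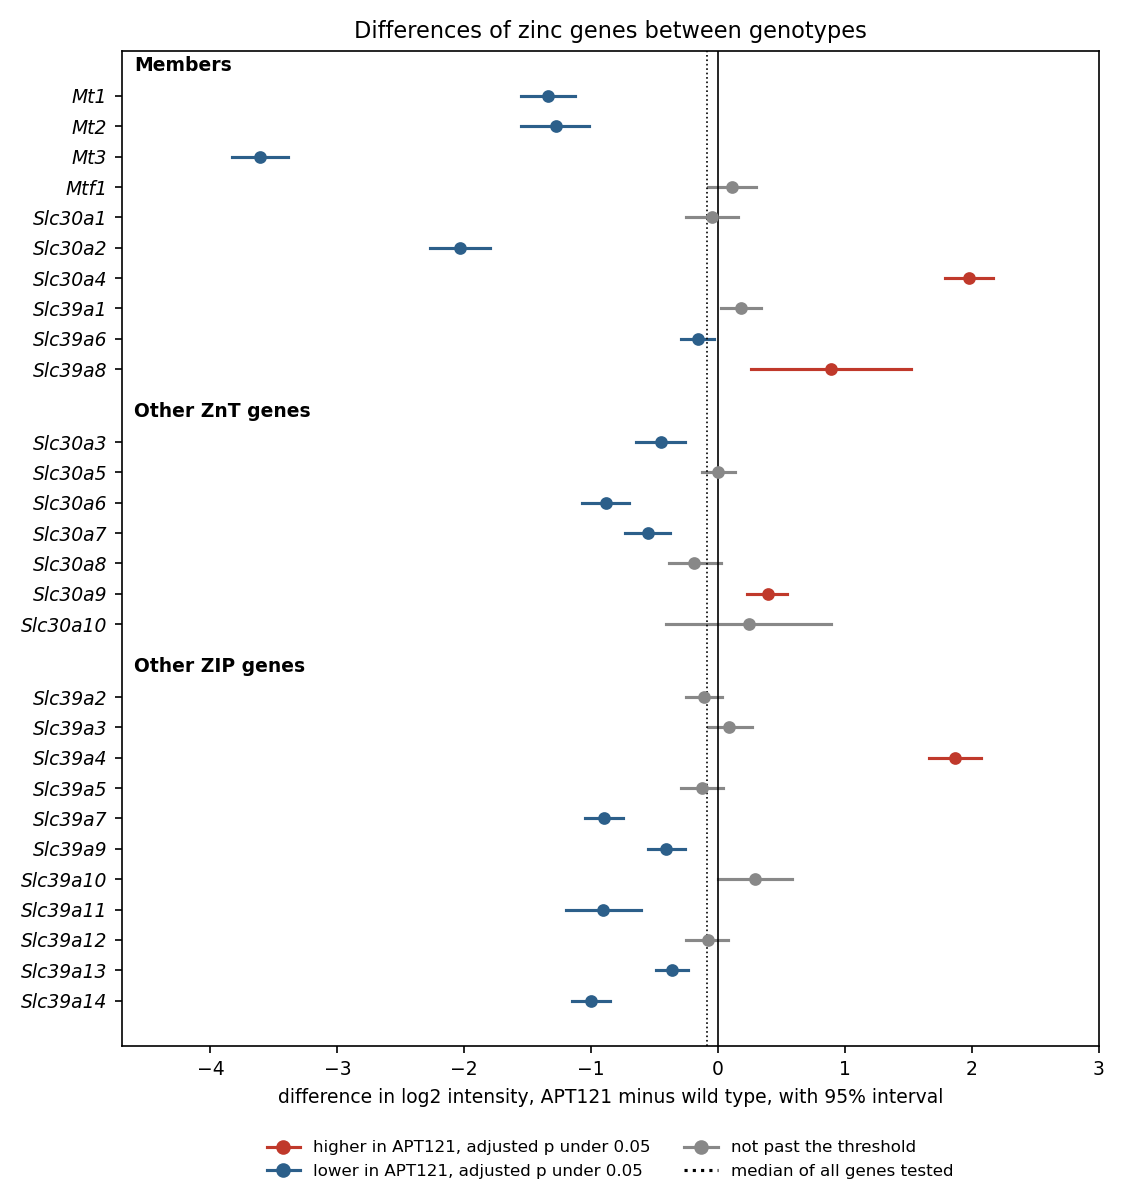
Difference in log2 intensity (APT121 minus wild type, points) with its 95% interval (lines) for the 10 genes and for the other ZnT and ZIP genes. Red rose, blue fell and grey did not pass. The solid line is at 0 and the dotted line at -0.09, the median of all genes tested. Mt3 at -3.61 is lowest and Slc30a4 at 1.98 and Slc39a4 at 1.87 are highest.

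The other zinc transporter genes also moved both ways, with more falls than rises. Of 20 further zinc genes (7 ZnT, 11 ZIP, Mt4 and the zinc receptor gene Gpr39), 2 rose, 9 fell and 9 did not pass, with a median difference of -0.16, beside 22.8% higher and 30.0% lower among all genes. Slc39a4 (ZIP4), the zinc importer of intestinal epithelium that is mutated in human acrodermatitis enteropathica, was at 9.21 in APT121 and 7.34 in wild type on average and rose by 1.87 ± 0.10 (adjusted p = 1.45e-10 by limma). Slc30a9 rose by 0.39 ± 0.07. Among importers, Slc39a14 (ZIP14), which carries zinc, iron and manganese, fell by 1.00 ± 0.07 (adjusted p = 7.12e-09 by limma), Slc39a11 fell by 0.91 ± 0.14 (-0.67 against wild type arrays 1 to 4 and -1.14 against arrays 5 to 8), and Slc39a7 (ZIP7), which releases zinc from the endoplasmic reticulum, fell by 0.90 ± 0.07. Slc30a6 and Slc30a7, transporters that supply zinc to the secretory pathway, fell by 0.88 ± 0.09 and 0.55 ± 0.08, and Slc30a3, the transporter of synaptic vesicles, fell by 0.45 ± 0.09. Slc30a5, which acts with Slc30a6, differed by -0.00 ± 0.06 (adjusted p = 0.959 by limma).

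Genes for other metals were read as lists beside the 22.8% higher and 30.0% lower of all genes and their median of -0.09. So were genes of the response to glucocorticoids or to oxidative and metal stress, signals that also induce metallothioneins. Of 9 measured copper genes 2 rose and 4 fell (median -0.19). The copper-transporting ATPase gene Atp7a rose by 1.40 ± 0.09 and the importer Slc31a1 by 0.57 ± 0.11 (0.74 against wild type arrays 1 to 4 and 0.41 against arrays 5 to 8), and the copper chaperone genes Atox1 and Cox17 each had a difference of -0.93. Commd1 differed by -0.26. Of 11 iron genes 4 rose and 5 fell (median -0.03). Slc40a1 (ferroportin), the cellular iron exporter, rose by 2.39 ± 0.11 (adjusted p = 3.12e-11 by limma). Tfrc, the transferrin receptor gene, rose by 0.97 ± 0.24, with overlapping groups, and the difference was 1.34 against wild type arrays 1 to 4 and 0.60 against arrays 5 to 8. Hamp, the hepcidin gene, rose by 0.93 ± 0.24 with overlapping groups, at a mean signal of 3.84 in APT121 and 2.91 in wild type, both below the array medians. Without APT121 array 3 its difference was 0.57 (adjusted p = 0.00864 by limma). Slc11a2, Ftl1 and Ireb2 fell, with differences of -0.56, -0.52 and -0.29.

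Of 10 genes listed for the glucocorticoid response, the receptor gene Nr3c1 among them, 7 rose and 1 fell, with a median difference of 0.72. Fkbp5, an immunophilin of steroid receptor complexes that androgens also induce in prostate, rose by 3.35 ± 0.15, Zbtb16 by 1.60 ± 0.11 and Errfi1 by 0.90 ± 0.09, and Cebpd fell by 0.62 ± 0.14. The glucocorticoid receptor gene Nr3c1 differed by 0.09 ± 0.07 (adjusted p = 0.296 by limma). Of 9 measured genes of oxidative and metal stress, 4 rose and 1 fell (median 0.25). Txnrd1 (0.65 ± 0.09), Nqo1 (0.62 ± 0.13) and Dnajb1 (0.48 ± 0.12) rose, and Slc7a11, the cystine transporter gene, fell by 1.43 ± 0.29. The difference of Dnajb1 was 0.69 against wild type arrays 1 to 4 and 0.27 against arrays 5 to 8. Dnajb1 did not pass after quantile normalisation (adjusted p = 0.0527 by limma), and Commd1 did not when set against arrays 5 to 8 of the wild type (adjusted p = 0.0504 by limma).

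The genes most like Mt1 and Mt2 were sought by Pearson's r of the deviations from the group mean over all 12 arrays, as a description. For Mt1 these were Septin10 (r = 0.94), Dbf4 (0.94), Mt2 (0.94), Birc5 (0.93) and Bmp7 (0.93), and for Mt2 they were Cenpp (0.97), Rad54b (0.96), Hnrnpl (0.95), Bmp7 (0.95) and Mt1 (0.94). These deviations come mainly from the 4 APT121 arrays, whose spread is the larger. They leave out the difference between the groups. Bmp7 was lower in APT121 (-1.88), while the other genes named, Mt1 and Mt2 apart, rose by 0.53 (Hnrnpl) to 2.16 (Rad54b). Mt3 was less like the other metallothioneins (r = 0.21 with Mt1 and 0.24 with Mt2), and Slc30a2 lay between (0.59 with Mt1 and 0.65 with Mt2).

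Array 4, the lowest of the APT121 arrays for Mt1, Mt2 and Slc30a2, was also the lowest of them for the summed smooth muscle, fibroblast, basal (1196), endothelial (475), myeloid (1343) and adipose (333) markers and the highest for luminal markers (19950). Its smooth muscle markers summed to 7105, against 8025, 9158 and 9469 in APT121 arrays 1, 2 and 3 and 11775 to 13610 in wild type arrays. Fibroblast markers summed to 1923 in it and to 2601, 2743 and 3210 in APT121 arrays 1, 2 and 3, against 3733 to 4447 in wild type arrays. Without this array the differences of Mt1 and Mt2 were -1.21 and -1.10, and both kept their calls. The part of the makeup of the tissue in the metallothionein levels was not tested.

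**Figure D4:**
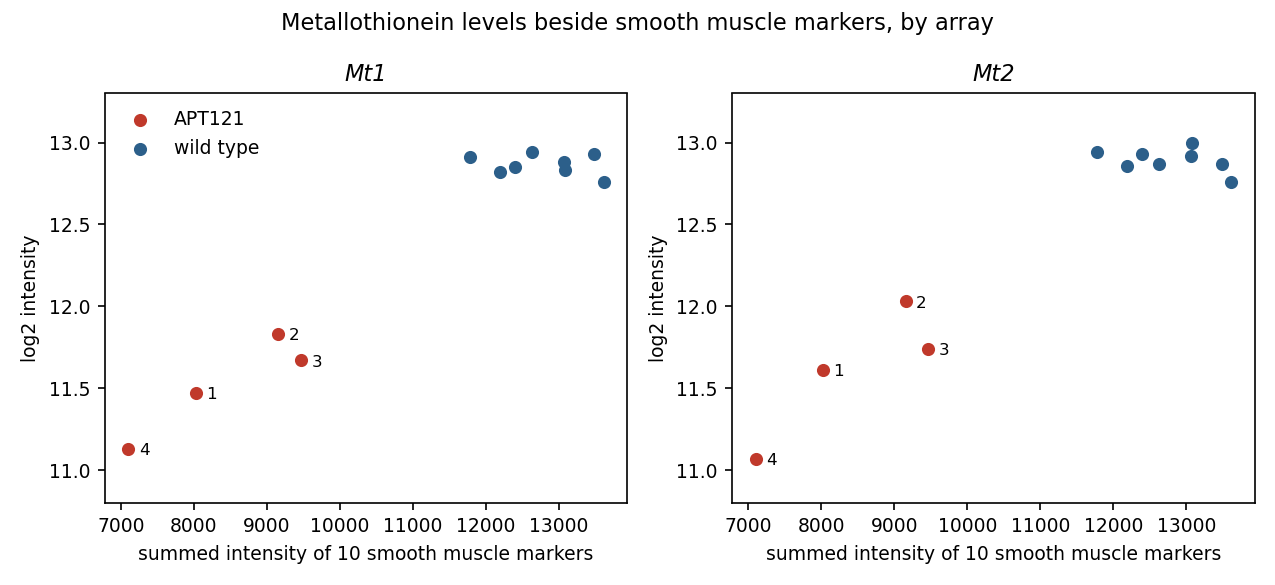
Log2 intensity of Mt1 (left) and Mt2 (right) against the summed intensity of 10 smooth muscle markers, with a point for each array (APT121 in red with array numbers, wild type in blue). APT121 array 4 is lowest on both axes, at 7105 for the markers, and all wild type arrays are at 11775 or higher.

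The summed intensity of seminal vesicle markers was higher in all 4 APT121 arrays than in 7 of the 8 wild type arrays. Mt1, Mt2, Mt3 and Slc30a2 were low in those APT121 arrays. The sum was also high in wild type array 6. In wild type array 6 Mt1 was at 12.88, Mt2 at 12.92, Mt3 at 10.25, the highest of all arrays, Slc30a2 at 9.09 and Slc30a4 at 5.13, all but that of Mt3 inside the range of the other 7 wild type arrays. APT121 array 1, with the lowest seminal vesicle sum of the APT121 arrays (1569), had Mt3 at 6.37, Slc30a2 at 7.01 and Slc30a4 at 7.02, inside the range of the other 3 APT121 arrays. The part of seminal vesicle tissue in these levels was not tested. Against wild type arrays 1 to 4 and 5 to 8 taken apart, the difference was -1.34 and -1.34 for Mt1 and -1.23 and -1.34 for Mt2.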

How the data were processed

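Total RNA of anterior prostate was hybridised to Affymetrix GeneChip Mouse Gene 1.0 ST arrays, per the labels. The deposited table holds 1 linear intensity per transcript cluster and array, made by the authors with RMA, per the submitters' processing notes. The program, its version and the genome build are not stated there, and no detection calls were used. Log2 was taken here. Of 28815 clusters, 21780 had 1 gene symbol, 1605 several and 5430 none, and only the first were used. The cluster with the highest mean stood for each of 998 genes with several, which left 19935 genes without a filter on low values.

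The APT121 and wild type arrays were compared in limma 3.58.1 under R 4.3.3 (lmFit and eBayes over 12 arrays, two-sided, Benjamini-Hochberg over all genes, threshold 0.05), checked on simulated data. The design text names SAM, which was not run. Each replicate pools 2 mice. Precision is limited by how many arrays there are. Genes, lists and markers were chosen with earlier results of these data known. All 10 genes are named, as are up to 3 genes per further list and direction and the 5 genes most like Mt1 and Mt2. Any further gene was named with its value in view. Settings tried besides were scalings, filters, variance models, cluster means, a replicate block, subsets of arrays and exact permutation tests. Promoter sequences are from RefSeq (GRCm38.p6).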

Additional observations from a re-analysis of the deposited data

Results flagged for a closer look

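Among the 38 genes given with differences from the set and its pathway lists, 5 values stood apart from the other arrays of their group by Dixon's criterion (the gap to the nearest array over the group's range), in 76 groups of arrays examined. Chance alone flags about 1 in 20 groups. Slc39a8 was at 7.89 in wild type array 1, and the other 7 wild type arrays were between 9.38 and 10.01. Slc39a7 was at 9.56 in wild type array 7, above the 9.23 to 9.36 of the others. Ftl1 was at 10.18 in APT121 array 4, below the 10.35 to 10.38 of the other 3 APT121 arrays. Zbtb16 was at 9.10 in wild type array 4, above the 8.47 to 8.76 of the others, and Cebpd was at 4.52 in wild type array 3, below the 4.86 to 5.16 of the others. The causes of these values were not tested.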

How the results depend on the processing

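Of 241 values of the 10 differences under other settings, 216 kept their direction and their side of the threshold. Mt1 (-1.44 to -1.21), Mt2 (-1.42 to -1.10), Mt3 (-3.74 to -3.49), Slc30a2 (-2.17 to -1.93) and Slc30a4 (1.88 to 2.05) did so under every setting run, among them the replicate block (-1.34 for Mt1 and -1.23 for Mt2). Mtf1 turned to -0.06 after quantile normalisation over the genes tested and Slc30a1 to 0.09 against wild type arrays 5 to 8, with adjusted p-values of 0.617 and 0.468 by limma. Slc39a1 passed without the lowest 25% or 50% of genes (0.18 each), with eBayes set to trend and robust (0.18), with array weights (0.19), without wild type arrays 5, 6 and 7 (0.22) and by an exact permutation test (0.18, p = 0.0404, unadjusted, two-sided), and it ran from 0.13 to 0.23 when 1 array was left out. Slc39a6 did not pass with the trend and robust options (-0.16), with the replicate block (-0.14), against wild type arrays 1 to 4 (-0.14) or without wild type arrays 5, 6 and 7 (-0.15), and ran from -0.18 to -0.14 when 1 array was left out. Slc39a8 did not pass with the trend and robust options (0.89, adjusted p = 0.0611 by limma) and ran from 0.65 to 0.96 when 1 array was left out. The causes were not tested. The count of the 10 genes past the threshold ran from 5 to 8, and that of the 59 other pathway genes from 32 to 41 (39 as reported). Of 638 values of the 28 other genes, 636 kept their calls. Replicate numbers 1 to 4 occur in both groups, but same-numbered arrays deviated together at r of -0.01 to 0.12 only, so they were not taken as pairs, and the block changed no other call among the 10. The exact permutation p of the 7 genes whose groups did not overlap was 0.00404, the smallest that 4 against 8 arrays can give. RMA ties the distributions of arrays together, which hides any change in the amount of RNA per cell.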
